A study of Mus musculus with 4 samples.

Results

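The ubiquitin ligases, FoxO factors, autophagy proteins and calpain that run protein breakdown in skeletal muscle were followed through 10 genes, namely Fbxo32, Trim63, Fbxo30, Foxo1, Foxo3, Map1lc3a, Atg7, Sqstm1, Bnip3 and Capn3. Every array probe that was not a control and whose transcript mapped to one of these genes was kept, which gave 17 of the 39429 probes on the array, for 10 of 19751 named genes. The cells were C2C12, an established mouse myoblast line that fuses into myotubes when serum is lowered. They were taken on day 3 of differentiation, either with interferon-gamma (IFN-γ) at 1 ng/ml or with no cytokine, and the labels name no other alteration in either group. Each of 4 arrays with a pair of dyes held RNA of IFN-γ cells in Cy5 and RNA of control cells in Cy3, so the dye and the treatment cannot be told apart in the values below. The study asked how IFN-γ acts on transcription during myogenesis.

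Muscle loss runs through several linked systems. Fbxo32 (atrogin-1) and Trim63 (MuRF1) are muscle E3 ubiquitin ligases that mark proteins for the proteasome, and the transcription factors Foxo1 and Foxo3, which insulin and AKT signalling keep out of the nucleus, are known to switch on both ligases and many autophagy genes. In autophagy, a membrane coated with lipid-bound LC3 closes around cargo and delivers it to the lysosome, while calpains cut muscle proteins directly in response to calcium.

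The labels number the IFN-γ samples as biological replicates 1 to 4 and leave unstated whether each control was a culture of its own. The p-values therefore measure how far the arrays spread, which may in part be technical. The labels also give the horse serum of the differentiation medium in 2 ways. Median spot intensities were 149.5 to 264 in the IFN-γ channel and 79.8 to 97 in the control channel, and the number of arrays limits the precision. Replicate 2 stood apart, with correlations of 0.54 to 0.66 with the other arrays over tested probes, while the remaining pairs reached up to 0.89. All 6 interferon control genes were higher in IFN-γ cells under every normalisation tried, with Psmb8 at 4.86 ± 0.20 and Gbp2 at 3.68 ± 0.40 (mean log2 ratio of IFN-γ over control ± SD, n = 4). Of 10 myoblast and myotube markers, 1 was higher, 5 were lower and 4 did not pass under loess. Mylpf had -1.67 ± 0.36, Des -1.23 ± 0.26, Ckm -1.12 ± 0.73, Tnnt3 -0.63 ± 0.17 and Myh3 -0.62 ± 0.06, of which Tnnt3 and Myh3 became positive, at 0.40 and 0.43, under median centring. Myog and Myod1, which drive differentiation, had -0.01 ± 0.40 and -0.02 ± 0.08 and did not pass the test under loess. They were at 1.02 and 0.97 under median centring, and at 0.55 and 0.49 with centring on the tested probes. Each was called in 2 of 16 ways of processing. Summed marker intensities were 217913 to 270760 in IFN-γ cells, against 300510 to 381937 in control cells. Such a sum follows the brightest probes, and Mylpf and Ckm hardly enter it. Myh3 alone read 84873 to 112905 in IFN-γ cells, against 123707 to 181730 in control cells. Fibroblast markers were higher for 2 of 4 tested genes, macrophage markers lower for 1 of 4 and endothelial markers lower for 1 of 3, and the 1 tested adipocyte marker did not pass. The part of any of these markers in the results below was not tested.

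The sequences just upstream of 3 members are shown because the FoxO factors act through promoter sites and because these genes include a classical FoxO target and a pair of autophagy genes that moved in opposite directions under loess. RefSeq promoters of build GRCm38.p6 were in hand for 8 of the 10 genes, covering 9 start sites, and each is the 250 bases before the start, written 5′ to 3′ on the gene's strand with the FoxO core in capitals. Trim63 lies at chr4:134314870-134315119 (+), Sqstm1 at chr11:50210821-50211070 (-) and Atg7 at chr6:114670846-114671095 (+).
Trim63: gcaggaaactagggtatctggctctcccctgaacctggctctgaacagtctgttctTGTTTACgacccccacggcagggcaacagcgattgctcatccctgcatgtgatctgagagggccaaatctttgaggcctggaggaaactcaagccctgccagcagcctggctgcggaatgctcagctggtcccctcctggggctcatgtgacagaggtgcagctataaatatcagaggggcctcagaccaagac
Sqstm1: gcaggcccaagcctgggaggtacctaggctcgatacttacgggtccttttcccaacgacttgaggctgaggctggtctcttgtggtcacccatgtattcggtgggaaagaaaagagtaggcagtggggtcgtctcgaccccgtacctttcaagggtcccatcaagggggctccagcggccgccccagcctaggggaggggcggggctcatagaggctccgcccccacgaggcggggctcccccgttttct
Atg7: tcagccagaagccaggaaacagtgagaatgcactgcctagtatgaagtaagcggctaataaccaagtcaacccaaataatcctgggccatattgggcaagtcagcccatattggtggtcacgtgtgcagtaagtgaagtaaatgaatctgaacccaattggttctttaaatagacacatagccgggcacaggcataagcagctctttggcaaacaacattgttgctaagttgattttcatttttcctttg
The motifs were searched on both strands. The FoxO core GTAAACA, read here on the reverse strand as TGTTTAC, was found in the Trim63 window alone among the 9 member windows, and in 3.17% of 32536 RefSeq promoters of the same length. Neither the gamma-activated site TTCNNNGAA, held by 7.04% of promoters, nor the interferon-response core (GAAA, any 2 bases, GAAA), held by 2.98%, occurred in any of the 9 windows. The E-box CANNTG, to which myogenic factors bind and which 66.2% of promoters hold, occurred in Trim63, Atg7, Bnip3, Foxo1 and both Capn3 windows. In Trim63 the FoxO core did not overlap the 3 E-boxes. No binding was measured, and a match is only a match of letters.

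Of the 16 tested probes of the 10 genes, 3 were higher in IFN-γ cells (Sqstm1, the dimmest of 3 Bnip3 probes and the dimmer of 2 Fbxo30 probes), 3 were lower (Map1lc3a, Atg7 by its brighter probe and Capn3) and 10 did not pass, at an adjusted p under 0.05 (limma). The 3 lower calls are relative to the bulk of probes on each array and were lost or became higher calls under other centrings, as given below. That is 37.5% of the tested member probes, against 29.1% of all 28933 tested probes (16.5% higher and 12.6% lower), a share near the background. Their median log2 ratio was -0.0014 and that of all tested probes was 0.014. Under loess no member reached a 2-fold change, and the largest was 1.52-fold. Under median centring some members passed a log2 ratio of 1, with Sqstm1 the highest at 1.40. The median of all tested probes was then 0.50. The count of 6 called probes became 3, 6, 1 and 2 without replicates 1, 2, 3 and 4. Over all tested probes the 8411 calls became 3063 to 11874 in the same runs. The intensities of the 2 groups did not overlap for 4 of the 16 tested member probes. The share without overlap over all tested probes was not counted. Fewer cells making a transcript and less of that transcript in each cell cannot be told apart in these bulk samples.

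**Figure D1:**
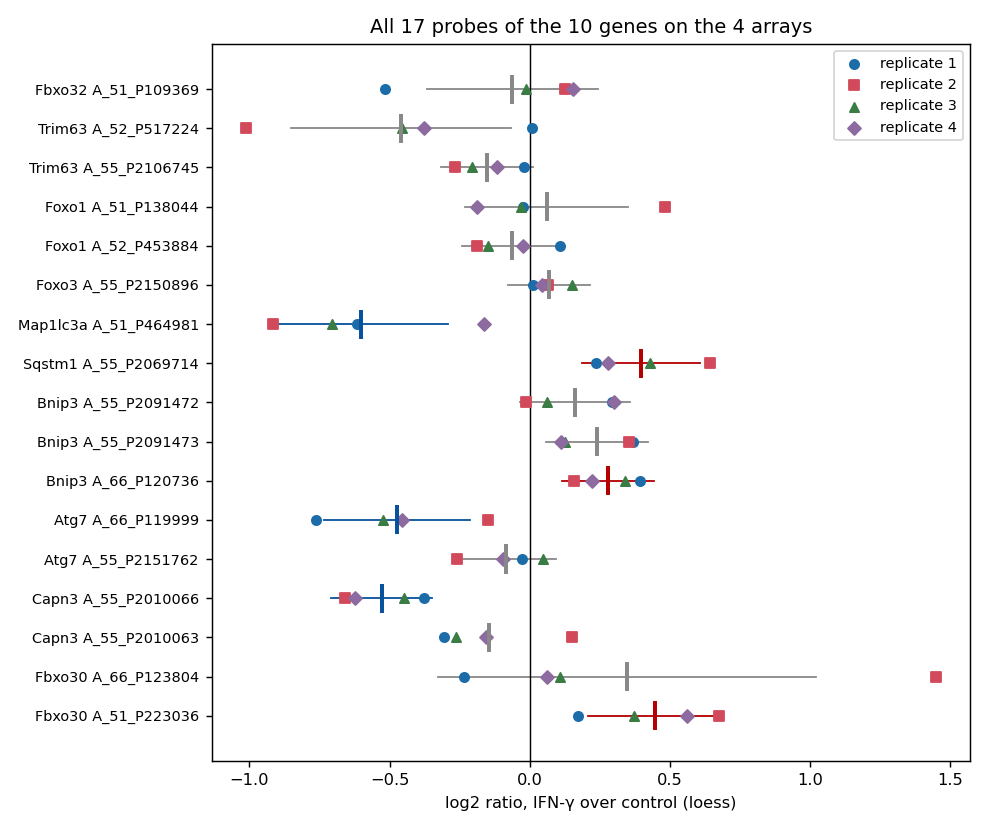
All 17 probes of the 10 genes, 1 per row, with the log2 ratio of IFN-γ over control after loess on the x axis, 1 symbol per array, the mean as a tall bar and the fit's 95% interval as a line (none for the untested Capn3 probe). Red marks probes called higher and blue probes called lower at adjusted p under 0.05, and the replicate 2 symbols of Fbxo30 at 1.45 and Trim63 at -1.01 lie far from the other arrays.

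Fbxo32, the F-box subunit that brings substrates to the SCF ligase, did not pass the test. Its probe, printed 10 times per array, read 1144, 1434, 1326 and 1624 in IFN-γ cells of replicates 1 to 4, against 1637, 1313, 1339 and 1460.3 in the control cells of the same arrays (normalised intensity, a linear scale comparable between channels for 1 probe only). The 2 groups overlapped, and replicate 1 alone was clearly lower in IFN-γ cells. The log2 ratios were -0.52, 0.13, -0.01 and 0.15, with a mean of -0.06 ± 0.31 (SD, n = 4), a 95% interval of -0.37 to 0.24 and an adjusted p of 0.74 (limma). The SD between the 10 spots of an array was 0.038 to 0.058. In replicate 1 all 10 spots lay between -0.60 and -0.46, and in replicate 4 all 10 lay between 0.11 and 0.22. The spots of 1 array share its RNA, labelling and hybridisation, so their spread does not include that between samples. Under median centring its mean was 0.90 and was called higher.

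**Figure D2:**
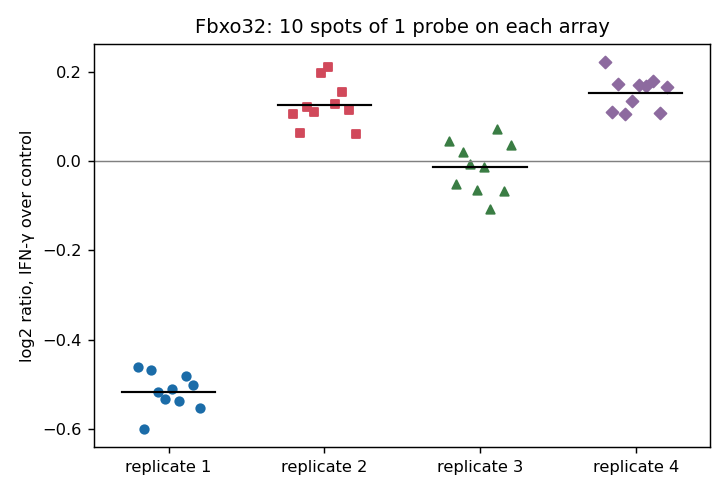
Log2 ratio of IFN-γ over control (y axis, after loess) at each of the 10 Fbxo32 spots on the 4 arrays (x axis). The spots of 1 array lie within a narrow band, with a between-spot SD of 0.038 to 0.058, while the band of replicate 1, at -0.60 to -0.46, is clear of the other 3 arrays.

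Trim63, the RING ligase of the sarcomere, did not pass the test on either probe. Its brighter probe read 742, 418, 637 and 583 in IFN-γ cells, against 738, 843, 873 and 758 in control cells. IFN-γ cells were lower on 3 of 4 arrays and level on replicate 1, so the groups overlapped. The log2 ratios were 0.01, -1.01, -0.46 and -0.38, with a mean of -0.46 ± 0.42 (SD, n = 4), an interval of -0.85 to -0.07 and an adjusted p of 0.0808. The interval leaves out 0 while the adjusted p misses the threshold, since the p is adjusted over all probes. The dimmer Trim63 probe had -0.02, -0.27, -0.20 and -0.12, a mean of -0.15 ± 0.11 and an adjusted p of 0.144. Both probes had a negative mean under loess, and under median centring both were positive, at 0.39 and 0.02, and neither passed. With centring on the tested probes both were negative, at -0.09 and -0.46, and the dimmer was called lower (adjusted p = 0.00519).

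Fbxo30 (MUSA1), an F-box ligase known from denervated mouse muscle, was higher by 1 of its 2 probes. The dimmer probe, A_51_P223036, read 742, 1032, 587 and 925 in IFN-γ cells, against 659, 646, 453 and 628 in control cells. IFN-γ cells were higher on all 4 arrays, though the lowest IFN-γ value lay below the highest control value. The log2 ratios were 0.17, 0.68, 0.37 and 0.56 and the mean was 0.44 ± 0.22 (SD, n = 4), a 1.36-fold rise with an adjusted p of 0.0207. The call was lost without replicate 3 (adjusted p = 0.0809) and without replicate 4 (0.0965). The brighter probe, A_66_P123804, read 802, 1967, 1016 and 1251 in IFN-γ cells, against 944, 721, 943 and 1198 in control cells. Its ratios of -0.23, 1.45, 0.11 and 0.06 were carried by replicate 2, and its mean of 0.35 ± 0.75 did not pass (adjusted p = 0.389). Its SD lay at the 98.5th percentile of all tested probes, and without replicate 2 its mean was -0.02.

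Neither FoxO factor passed the test in its own transcript under loess. Foxo1 read 3154, 3456, 3052 and 3470.1 in IFN-γ cells on its brighter probe, against 3205, 2476, 3118 and 3955 in control cells. Only replicate 2 was clearly higher in IFN-γ cells, and the groups overlapped. The ratios of -0.02, 0.48, -0.03 and -0.19 averaged 0.06 ± 0.29 (SD, n = 4), with an interval of -0.23 to 0.35 and an adjusted p of 0.738. The second Foxo1 probe read 2158, 1885, 2202 and 2215 in IFN-γ cells, against 2000.3, 2149.6, 2441 and 2254 in control cells. Its mean of -0.06 ± 0.13 had an interval of -0.24 to 0.12 and an adjusted p of 0.558. Under median centring both Foxo1 probes were called higher, at 1.06 and 0.93. Foxo3 was near the detection limit, at 113, 109, 112 and 108 in IFN-γ cells, against 112, 104, 101 and 105 in control cells. The probe was well above background on 4 of 4 arrays in IFN-γ cells and on 1 of 4 in control cells, and its ratios of 0.01, 0.07, 0.15 and 0.04 averaged 0.07 ± 0.06 with an adjusted p of 0.434. The sign of Foxo3 turned with the scaling, to -0.21 under median centring, which did not pass, and to -0.68 with centring on the tested probes, which was called lower (adjusted p = 0.000732). Its SD lay at the 7.48th percentile of tested probes. Activity of FoxO proteins, which depends on phosphorylation and nuclear entry, was not measured.

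Map1lc3a and Atg7, both part of the LC3 lipidation machinery, fell relative to the bulk of probes under loess. Under median centring Map1lc3a, at 0.41, and the brighter Atg7 probe, at 0.53, were called higher (adjusted p = 0.0308 and 0.00365, limma). Neither passed with centring on the tested probes. Map1lc3a encodes an LC3 protein, which becomes bound to the forming autophagosome. It read 2586, 2676, 3118 and 3423 in IFN-γ cells, against 3967, 5052, 5083 and 3833 in control cells, and the groups did not overlap. The log2 ratios were -0.62, -0.92, -0.70 and -0.16, all negative, and the mean of -0.60 ± 0.32 (SD, n = 4) was a ratio of 0.66 with an interval of -0.91 to -0.29 and an adjusted p of 0.0188. The fall was smallest on replicate 4, and the call was lost without replicate 1 (adjusted p = 0.0699) and without replicate 3 (0.0919). Atg7 is the E1-like enzyme that activates both LC3 and ATG12. Its brighter probe read 1885, 2851, 2567 and 2151 in IFN-γ cells, against 3194, 3162, 3691 and 2949 in control cells, again without overlap. The ratios were -0.76, -0.15, -0.52 and -0.46 and the mean was -0.47 ± 0.25 (SD, n = 4), a ratio of 0.721 with an adjusted p of 0.0228. This call was lost without replicate 1 (adjusted p = 0.0713), without replicate 3 (0.102) and without replicate 4 (0.0912). The dimmer Atg7 probe read 237, 176, 222 and 209.6 in IFN-γ cells, against 241, 210.3, 215 and 224 in control cells, and its mean of -0.08 ± 0.13 did not pass (adjusted p = 0.433).

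Sqstm1 (p62), which tethers ubiquitin-tagged cargo to LC3, was higher in IFN-γ cells. It read 4389, 4908, 4386 and 5129 in IFN-γ cells, against 3726, 3141, 3255 and 4223 in control cells, with no overlap. The log2 ratios were 0.24, 0.64, 0.43 and 0.28, and the mean of 0.40 ± 0.18 (SD, n = 4) was a 1.32-fold rise with an interval of 0.19 to 0.61 and an adjusted p of 0.0204. The call was lost without replicate 3 (adjusted p = 0.0958) and without replicate 4 (0.0657), while the mean stayed positive under every alternative run.

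Bnip3, a mitochondrial outer-membrane receptor for mitophagy, had 3 probes, all with positive means, of which the dimmest passed. That probe, A_66_P120736, read 382, 277, 315 and 321 in IFN-γ cells, against 290.4, 248, 249 and 275 in control cells. IFN-γ cells were higher on each of the 4 arrays, with some overlap between groups. The ratios of 0.39, 0.16, 0.34 and 0.22 averaged 0.28 ± 0.11 (SD, n = 4), a 1.21-fold rise with an adjusted p of 0.0284. The call was lost without replicate 1 (adjusted p = 0.106), 3 (0.129) or 4 (0.0917), as well as with a normexp offset of 0 (0.0508). The bright probe A_55_P2091472 read 9894, 6654, 8238 and 9030.3 in IFN-γ cells, against 8079, 6714, 7894 and 7333 in control cells. It averaged 0.16 ± 0.16 with an adjusted p of 0.183. The bright probe A_55_P2091473 read 9461, 7328, 6642 and 8195 in IFN-γ cells, against 7330.1, 5734, 6081 and 7581 in control cells, and averaged 0.24 ± 0.14 with an adjusted p of 0.0585. The intervals of the 3 probes, -0.04 to 0.36, 0.06 to 0.42 and 0.11 to 0.44, overlap one another, and a difference between the probes was not tested.

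Capn3, the muscle-specific calpain that binds titin, fell under loess. Under median centring it was called higher, at 0.45 (adjusted p = 0.00709, limma), and with centring on the tested probes it did not pass. It read 1597, 1333, 1488 and 1224 in IFN-γ cells, against 2074, 2105, 2032 and 1887 in control cells, with the highest IFN-γ value well below the lowest control value. The log2 ratios were -0.38, -0.66, -0.45 and -0.62, and the mean of -0.53 ± 0.14 (SD, n = 4) was a ratio of 0.694 with an interval of -0.71 to -0.35 and an adjusted p of 0.00594. Among the 6 member probes called under loess, only this call held without each replicate in turn, with adjusted p from 0.00265 to 0.0409 (limma). The muscle markers Mylpf, at -1.36, -2.19, -1.54 and -1.61, and Ckm, at -0.78, -2.17, -1.04 and -0.51, were lower on the same 4 arrays. Of the other 8 markers, Des, Tnnt3 and Myh3 were also lower, and Myf5 was higher at 0.60 ± 0.15 (adjusted p = 0.00486, limma). Myod1, Myog, Cdh15 and Acta1 did not pass under loess. The part of the markers in the Capn3 result was not tested. The other Capn3 probe was well above background on 1 array in each channel and was not tested, and its ratios were -0.31, 0.15, -0.26 and -0.16.

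**Figure D3:**
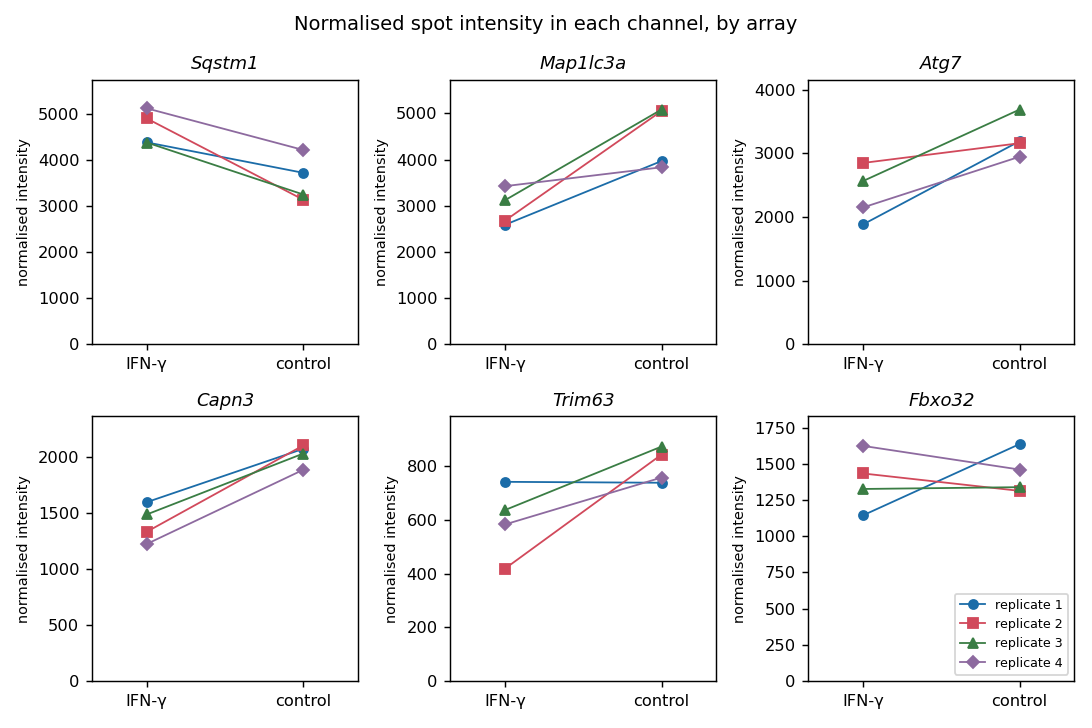
Normalised intensity (y axis, linear, from 0) of the brightest probe of 6 of the genes on each array, with IFN-γ cells left of control cells, 1 symbol per array and lines joining the channels of 1 array. Map1lc3a, Atg7 and Capn3 have every IFN-γ point below every control point, Sqstm1 has every IFN-γ point above, and Trim63 and Fbxo32 overlap. The 4 probes without overlap are the only ones among the 16 tested member probes. Fbxo30, Foxo1, Foxo3 and Bnip3, which are not drawn, overlapped. Intensities of different probes are not comparable.

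The members varied among themselves in which array departed. Replicate 2 was the highest or lowest array for 13 of 16 tested member probes and replicate 1 for 12, against 2 for replicate 3 and 5 for replicate 4. Over all 28840 probes with 4 arrays the shares were 51.6%, 69.2%, 36.4% and 42.7% for replicates 1 to 4. The median SD over arrays was 0.172 for member probes and 0.158 for all tested probes. Of the 5 member genes with 2 or more tested probes, 3 had probes that differed in call (Fbxo30, Bnip3 and Atg7), or 60%, against 42.7% of 3923 such genes on the array. None of the 5 had probes called in opposite directions, against 124 of the 3923 genes.

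The direction of the falling genes rests on the scaling. Under median centring over all probes, the median of the tested probes was 0.50 and that of the tested member probes 0.85, and 12 of the 16 were called higher and 0 lower. With centring on the tested probes, 9 were called higher and 2 lower, the 2 being Foxo3 and the dimmer Trim63 probe. Most of all tested probes were called under these centrings too, as counted below, so a call under them is not particular to the members. The 2 centrings differ by 1 number per array, so set against the median tested probe they give the same values by arithmetic. On that scale Map1lc3a was at -0.10, Capn3 at -0.05 and the brighter Atg7 probe at 0.03, which is near the bulk of the array. Sqstm1 was at 0.90, the brighter Fbxo30 probe at 0.77 and the dimmer at 0.78, Foxo1 at 0.56 and 0.43, Fbxo32 at 0.40 and Foxo3 at -0.71. Loess removes a trend with brightness within each array, and centring by 1 number does not. Sqstm1 and Fbxo30 stayed above Map1lc3a, Atg7 and Capn3 in each of the normalisations plotted.

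**Figure D4:**
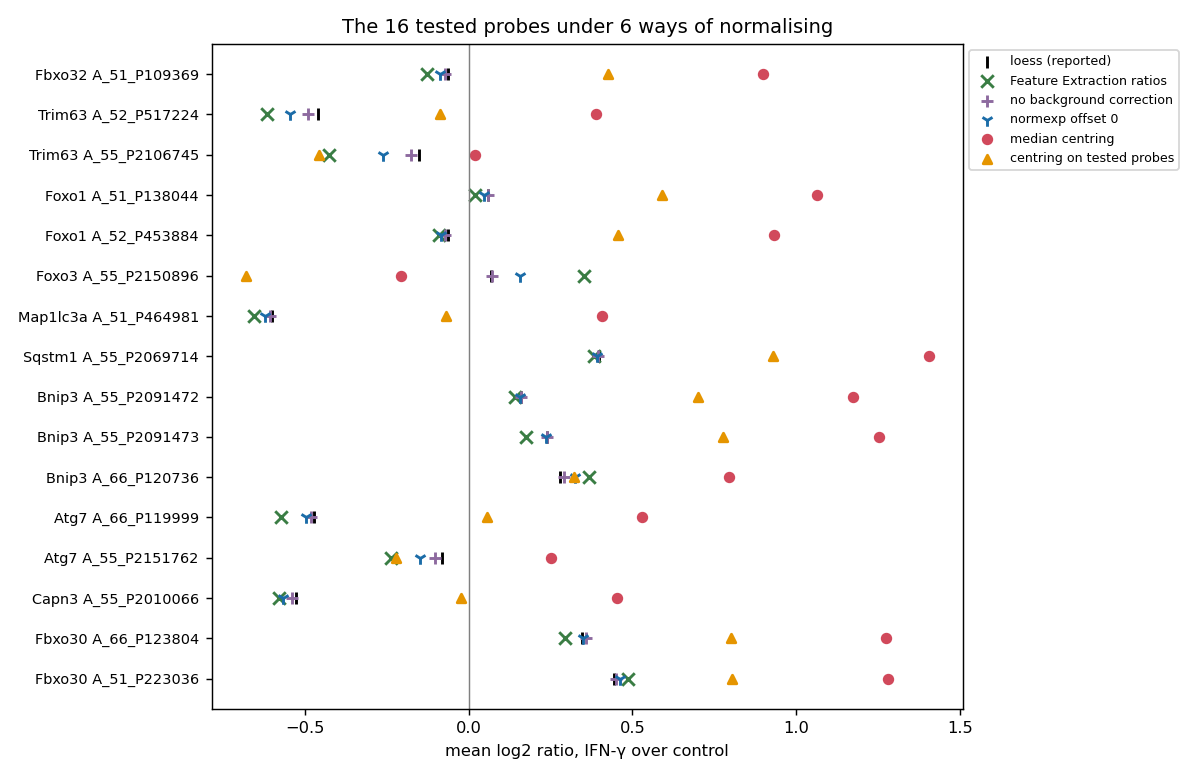
Mean log2 ratio of IFN-γ over control (x axis) of the 16 tested member probes under 6 normalisations. Loess, Feature Extraction ratios, no background correction and an offset of 0 lie close together for most probes (less so for the dim probes of Foxo3 and Trim63), while median centring and centring on tested probes move the bright probes to the right, so that Map1lc3a lies at -0.60 under loess, 0.41 under median centring and -0.07 with centring on tested probes.

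The wider pathways were counted through 105 tested genes other than the 10, of which 22 were higher and 8 lower in IFN-γ cells, or 28.6%, against 31.7% of the 15678 named genes taken by their brightest tested probe (18.8% higher and 12.9% lower). The 30 calls became 22, 46, 11 and 13 without replicates 1 to 4, while the 4964 calls over all named genes became 1865 to 6770. Of the muscle ubiquitin ligases and related genes, 3 were higher, 1 lower and 17 not passed of 21, and the 4 calls became 2, 6, 1 and 2 without replicates 1 to 4. Nedd4 and Traf6, which are ubiquitin ligases, rose by 0.31 ± 0.14 and 0.28 ± 0.12 (log2 ratio, mean ± SD, n = 4, as for all genes below, with the adjusted p in parentheses; 0.0289 and 0.0316). Trim54 (MuRF3), a microtubule-binding relative of Trim63, fell by 0.69 ± 0.27 (0.00921), and was 0.31 under median centring. Ubb, the brightest that did not pass, had -0.02 ± 0.19. Of the FoxO factors and their upstream pathway, 2 were higher and 3 lower of 16, and the 5 calls became 3, 6, 2 and 2. Sgk1, a kinase that phosphorylates FoxO proteins, rose by 0.71 ± 0.13 (0.00268) and Mtor by 0.41 ± 0.15. Foxo6 had -0.54 ± 0.17 and Irs2, an insulin receptor adaptor, -0.52 ± 0.38, both called lower, and both were positive under median centring, at 0.48 and 0.48. A dimmer Foxo6 probe had -0.27 ± 0.19 and did not pass (0.0651). The median log2 ratio was -0.018 for the ligase list and 0.0091 for the FoxO list, against 0.026 over all named genes.

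Among genes that start an autophagosome, 3 were higher and 1 lower of 16, and the 4 calls became 4, 6, 1 and 1 without replicates 1 to 4. Uvrag and Pik3c3, which act in the lipid kinase complex that marks the forming membrane, rose by 0.62 ± 0.20 (0.00645) and 0.52 ± 0.21 (0.012), and the lipid transfer protein gene Atg2b rose by 0.36 ± 0.09. Ulk1, the initiating kinase, had -0.34 ± 0.14 and was called lower (0.0206), but was 0.67 under median centring. Of the LC3 and ATG12 conjugation genes, 1 was higher and 2 lower of 14, the 2 lower being Map1lc3a and Atg7, and the 3 calls became 1, 4, 1 and 2. Atg3, the E2-like enzyme that takes LC3 from ATG7, rose by 0.89 ± 0.19 (0.00233). Gabarapl1, the brightest of the list that did not pass, had 0.17 ± 0.28. The median was -0.037 for the initiation list and -0.00097 for the conjugation list.

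Cargo and mitophagy receptors had 4 higher, 0 lower and 7 not passed of 11 (36.4%, against 31.7% of named genes), with a median of 0.16. The 4 calls became 2, 5, 0 and 0 without replicates 1 to 4, so none was left without replicate 3 or 4 (limma), where 4 and 5 had an unadjusted p under 0.05. In the same runs the 4964 calls over all named genes became 1865 to 6770, so they fell in some runs and rose in others. Beside Sqstm1 the called receptors were Tax1bp1 at 0.56 ± 0.25 (0.0131), Nbr1 at 0.47 ± 0.26 (0.0254) and Fundc1, a hypoxia-linked mitophagy receptor, at 0.35 ± 0.22 (0.0416). Sqstm1, Nbr1 and Tax1bp1 all carry ubiquitin-tagged cargo to LC3. The lysosome list had 4 higher, 2 lower and 7 not passed of 13 (46.2%), with a median of 0.20, and its 6 calls became 5, 9, 2 and 2. The cathepsin gene Ctss was 2.41-fold higher by its fitted ratio of 1.27 ± 0.34 (adjusted p = 0.00288). It was not well above background in control cells on any array. For a bound, the control on each array was set at its own signal or at the dimmest signal well above background, whichever was higher. For Ctss its own signal was the higher, so the bound equals the measured ratio and is not a minimum. Replicate 1 had a log2 ratio of 1.78 and the other arrays 1.08 to 1.16, and the fitted ratio is open to dye bias. The proton pump subunit gene Atp6v1h rose by 0.81 ± 0.24, the membrane protein gene Lamp2 by 0.68 ± 0.31 and the cathepsin gene Ctsl by 0.47 ± 0.14, while Lamp1 had 0.20 ± 0.53 and did not pass. The 2 lower genes, Mcoln1 at -0.47 ± 0.30 (0.0344) and the lysosomal regulator Tfeb at -0.41 ± 0.16 (0.015), were positive under median centring, at 0.54 and 0.18, and are named after their values were seen.

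In the calpain system, 4 were higher, 1 lower (Capn3) and 4 not passed of 9 (55.6%, against 31.7% of named genes), with a median of 0.059, and the 5 calls became 4, 6, 3 and 3 without replicates 1 to 4. Capn6 rose by 0.65 ± 0.16 (0.00437), Cast, which encodes the calpain inhibitor calpastatin, by 0.44 ± 0.11 (0.00775), Capn2 by 0.33 ± 0.12 and Capn7 by 0.22 ± 0.08. Capns1, the small regulatory subunit gene, had -0.23 ± 0.05 over the 3 arrays that measured it and did not pass (0.0751). Of the atrophy and FoxO response genes, 2 were higher, 1 lower and 12 not passed of 15, with a median of 0.0026, and the 3 calls became 3, 8, 2 and 3. Txnip, an arrestin-like inhibitor of thioredoxin and glucose uptake, rose by 1.39 ± 0.23 (0.000847) and Klf15 by 0.45 ± 0.12, though Klf15 was -0.30 with centring on the tested probes and was above background in control cells on 1 array. A dimmer Txnip probe rose less, by 0.49 ± 0.11 (0.00561). Ddit4 (REDD1), an inhibitor of mTOR complex signalling, fell by 0.79 ± 0.09 (0.00142) and was 0.23 under median centring. Mt1, the brightest that did not pass, had -0.50 ± 0.56.

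**Figure D5:**
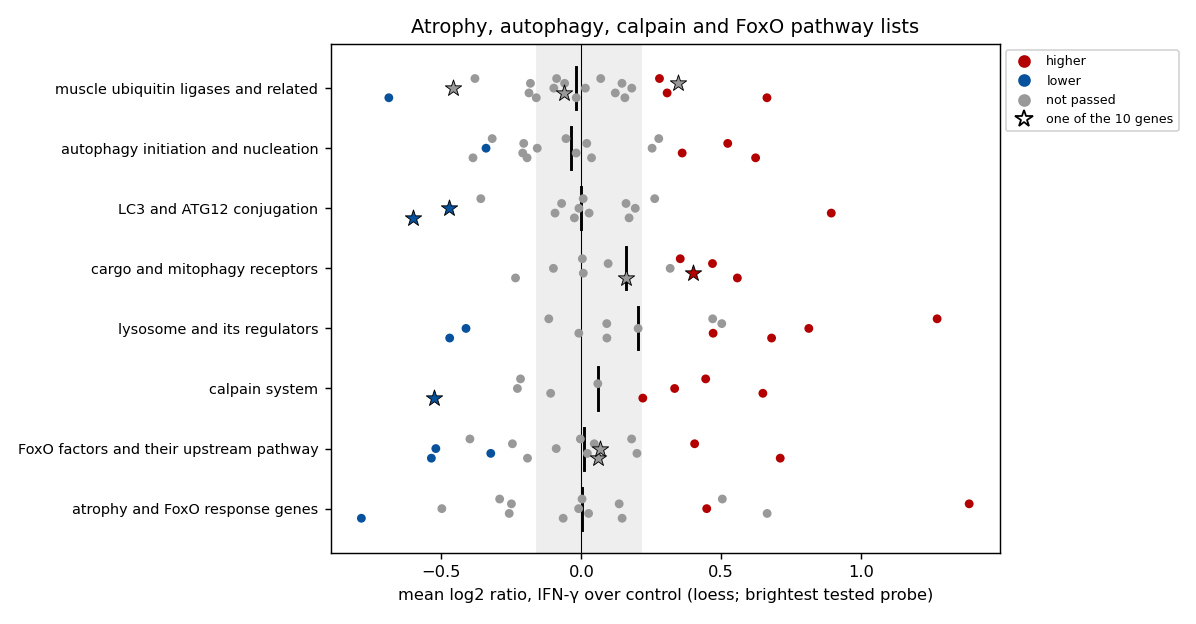
Mean log2 ratio of IFN-γ over control (x axis, brightest tested probe of each gene, after loess) for 8 pathway lists, with red points called higher, blue points called lower, grey points not passed, stars for the 10 genes and a black bar at each list's median. The grey band is the middle 50% of all named genes, -0.16 to 0.21, and each list's median falls inside it. Under median centring the blue stars of Map1lc3a, Atg7 and Capn3 would lie right of 0.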

How the data were processed

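Agilent 2-colour arrays measured RNA of IFN-γ cells (Cy5) and control cells (Cy3), 4 arrays in all. Deposited spot intensities and log10 ratios of Cy5 over Cy3 were made by the authors with Agilent's Feature Extraction (version 10.7.3.1 in the submitters' processing notes), per the file headers. The authors' deposited value table is in log2 units and matched the scanner ratios with slopes of 3.32 and correlations of 0.999 to 1.00 over tested probes. It therefore holds nearly the same values as Feature Extraction's ratios and shares their centring. Its column medians were -0.124 to -0.105. All arrays lay on 1 slide with 1 scan, so no batch could be tested.

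Spot intensities were background-corrected (normexp, offset 50) and loess-normalised within arrays in limma 3.58.1 (R 4.3.3), with control spots at weight 0, outlier spots dropped and spots of a probe averaged. A probe was tested when 3 or more of the 4 arrays flagged it well above background in 1 and the same channel. lmFit and eBayes tested the mean log2 ratio against 0, two-sided, with Benjamini-Hochberg adjustment over all 28933 tested probes, and every adjusted p comes from this fit. A gene took the value of its brightest tested probe in that fit. Channel intensities came from loess and Aquantile normalisation. Of 39429 probes, 26055 had 1 symbol through the RefSeq table, 0 several and 13374 none. The files' build differs from RefSeq's, so coordinates are those of RefSeq promoters alone.

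Members and lists were chosen with earlier results of these data known. All members are described with every probe. From each other list, up to 4 called genes with the largest change and the brightest that did not pass (2 where none passed) are named, and interferon control genes and muscle markers may be named. Atg4a, Foxo4, Mstn, Thy1, Cdh5, Adipoq, Plin1 and Fabp4 were not tested, and Cd68 matched no probe. Some list genes are not reported here. In data simulated for this comparison over 28840 probes, 50 probes each were changed by 0.5, 1, 2 and 4 (log2). Of these, 28%, 72%, 98% and 100% were recovered, with 8 false calls. Noise was drawn independently for each array, and a far smaller share of probes was changed than the 29.1% called in the data. The recovered shares may therefore differ from the power in these data. Alternatives covered background, centring, filters, Feature Extraction's and the authors' values, a robust fit, the methods' t-test and leaving out each array.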

Additional observations from a re-analysis of the deposited data

Results flagged for a closer look

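In 5 of the 50 probes of named genes examined, 1 array lay so far from the other 3 that its gap to the nearest of them took up a larger share of the range over the 4 arrays than Dixon's 95% critical value. Chance alone marks about 1 in 20 groups in this way. None of the 5 belongs to the 10 genes. Values are log2 ratios of IFN-γ over control. Atg13, of the initiation complex, had replicate 4 at -0.45 and the others at -0.16 to -0.11, a gap of 0.86 of the whole range. Ctss, whose control signal was not well above background on any array, had replicate 1 at 1.78 and the others at 1.08 to 1.16, a gap of 0.884 of the whole range. Ctsl had replicate 2 at 0.26 and the others at 0.52 to 0.56, a gap of 0.892 of the whole range. Foxo6 had replicate 2 at -0.79 and the others at -0.48 to -0.41, a gap of 0.831 of the whole range. Ddit4 had replicate 1 at -0.65 and the others at -0.85 to -0.82, a gap of 0.865 of the whole range. The odd array was replicate 1, 2 or 4 in different genes.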

How the results depend on the processing

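Feature Extraction's ratios, the authors' table, no background correction, an offset of 0, either change of the filter on dim probes and a robust fit kept the 4 counts within 1.5 times (8411 probes, 6 member probes, 4964 genes and 30 pathway genes called), as did the mean of a gene's probes for the last 2. The authors' table and Feature Extraction's ratios hold nearly the same values, so they count as 1 check. Centring moved all 4 counts, and the cause was not tested. Median centring called 22795 of the 28933 tested probes, 72.3% of them higher against 56.8% under loess, 12 member probes, 13048 genes and 100 pathway genes. Centring on the tested probes called 21466 probes, 48.8% higher, 11 member probes, 11671 genes and 80 pathway genes. Median centring turned these values: Fbxo32 0.90, Foxo1 (second probe) 0.93, Map1lc3a 0.41, Atg7 0.53, Capn3 0.45, Trim54 0.31, Ubb 1.03, Ulk1 0.67, Atg13 0.80, Bnip3l 0.78, Capns1 0.86, Foxo6 0.48, Irs2 0.48 and Ddit4 0.23. Centring on the tested probes turned these: Fbxo32 0.42, Foxo1 (second probe) 0.46, Foxo3 -0.68, Atg7 0.055, Ubb 0.55, Ulk1 0.20, Atg13 0.33, Bnip3l 0.31, Capns1 0.35, Foxo6 0.0025, Irs2 0.0047 and Klf15 -0.30. Leaving out 1 array gave 3063 to 11874 probes, 1 to 6 member probes, 1865 to 6770 genes and 11 to 46 pathway genes, the highest counts without replicate 2 and the lowest without replicate 3, and fewer arrays give less power. Each ratio pairs the channels of 1 array. The methods' unpaired t-test, with no replicate block, found 10721 probes at an unadjusted p under 0.05, 6315 after adjustment and 652 of these past 2-fold, with 6, 2 and 0 member probes (the 2 were Map1lc3a and Capn3). Foxo3 was above background in control cells on 1 array, which limits its ratio.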

Other observations

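Several pathway genes had further probes that differed from the brightest; these genes were picked after their values were seen. Bnip3l (Nix), the close relative of Bnip3 and a mitophagy receptor of the mitochondrial outer membrane, had -0.24 ± 0.19 on its brightest probe (log2 ratio of IFN-γ over control, mean ± SD, n = 4; adjusted p = 0.0981). Its other 3 tested probes were all called higher, at 0.48 ± 0.18, 0.37 ± 0.16 and 0.34 ± 0.21 (adjusted p = 0.0118, 0.0204 and 0.0412). Their ratios on the 4 arrays were positive throughout, for instance 0.47, 0.73, 0.32 and 0.39 for the first. Ubb, a polyubiquitin gene, had -0.02 ± 0.19 on its brightest probe and 0.55 ± 0.19 on the other (adjusted p = 0.00833).

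Cat, which encodes the peroxisomal enzyme catalase, had -0.25 ± 0.34 on its brightest probe (adjusted p = 0.213) and 0.72 ± 0.15 on a dimmer probe called higher (adjusted p = 0.00309). Mitf, a relative of the lysosomal regulator Tfeb, had 0.09 ± 0.06 on its brightest probe and -1.13 ± 0.44 on another probe called lower (adjusted p = 0.00705), with -0.93, -1.75, -0.73 and -1.09 on the 4 arrays. Which transcripts the probes of these 4 genes detect was not tested.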
